A study of Mus musculus with 31 samples.

Results

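The 10 genes described here (Depp1, Edn1, Cd83, Sun2, Rab33a, Sh3d21, Ahnak2, Tmem86a, Ypel3 and Bnip5) had the largest rises on high-fat diet among the genes that passed the test for diet in the lining of the mouse colon. They are 10 of 12795 genes tested and of 18820 genes with a probe set of their own. The values that chose them were their diet differences over all infusions, so these differences are given as a description with no test. All 10 genes passed the filter on dim genes, and each was read by 1 probe set. Ypel3 entered last with a log2 difference of 0.52. The next genes past the same threshold (limma, adjusted p of 0.05) were Cyp27a1 with 0.52, B3galt2 with 0.50 and Chst15 with 0.45. In all, 15 tested genes had a difference of at least that of Ypel3; the 5 that missed the threshold and so were not ranked were Slc37a2 (0.96), Clu (0.62), Gp2 (0.59), Trpv3 (0.57) and Cyp2d12 (0.55).

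The genes do not belong to 1 pathway. Depp1 is switched on by FOXO transcription factors, which are active when insulin signalling is low, and its protein acts in autophagy. Edn1 encodes the precursor of endothelin-1, a peptide that constricts vessels and acts through G protein-coupled receptors. Cd83 encodes a membrane protein of the immunoglobulin superfamily known as a marker of mature dendritic cells. Sun2 spans the inner nuclear membrane and, in the LINC complex, ties the nuclear lamina to the cytoskeleton. Rab33a is a small GTPase of vesicle traffic, related to Rab33b, which binds the autophagy protein Atg16l1. Tmem86a is a lysoplasmalogenase, an enzyme that cleaves ether lipids. Ahnak2 is a very large scaffold protein, Bnip5 is named as an interactor of the BCL2 proteins that control cell death, and Ypel3 belongs to a small conserved family linked to growth arrest. Sh3d21 carries an SH3 domain.

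Male C57Bl/6J mice aged 13 weeks had eaten a semi-synthetic diet with palm oil as its fat, either low in fat (LFD, 10% of energy) or high in fat (HFD, 45% of energy). On 6 days each mouse received 80 µL into the rectum, either of saline or of saline with 100 mM sodium acetate, sodium propionate or sodium butyrate. These short-chain fatty acids are released from fibre by gut bacteria, and in the order given each adds a carbon to the chain of the one before. Colonic scrapings were taken 4 h after the last infusion, and their RNA was hybridised to whole-transcript arrays. The 8 groups (each infusion on each diet) held 4 arrays each, except acetate on LFD with 3, and 31 arrays in all. All mice shared the strain, the sedation at infusion and the palm oil diets, and the share of fat cannot be told apart from whatever else differed between the diets. The labels give 6 mice per group without saying which of them the arrays hold, so p-values measure only the spread between these arrays, which may be technical in part. Levels are log2 values of the array signal, and a difference of 1 is a doubling. In tissue scrapings, more cells of a type and more RNA per cell cannot be told apart.

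The tissue label was checked against its markers. All 10 colon epithelium markers, among them Epcam, Krt20 and Muc2, were read on every array, with a mean level of 11.3 to 11.6. Some arrays stood apart in markers of other tissue. Small intestine markers averaged 8.04 to 8.50 on propionate LFD 2, saline LFD 2, saline LFD 3 and saline HFD 2, against 6.43 on the next array. Smooth muscle markers averaged 6.47 and 6.26 on saline HFD 1 and saline HFD 2, against 5.74 on the next. Distal colon markers were lowest, at 6.13 to 6.55, on butyrate LFD 2, saline LFD 1, acetate LFD 1 and propionate HFD 4, but these did not stand apart, since the next array read 6.57. Butyrate LFD 2 and saline LFD 1 also had the highest adipocyte marker means of all arrays, 6.61 and 6.52, against 6.19 on the next, saline LFD 2. Leaving out the 4 arrays lowest in distal colon markers therefore also removes the 2 highest in adipocyte markers. Over the diets, the mean of the small intestine markers differed by −0.48 on HFD (1 of 10 genes above 0). The means of the distal colon markers differed by 0.21 (5 of 6 above 0), of B cell and plasma cell markers by 0.16 (7 of 9), of smooth muscle markers by 0.15 (8 of 8), of macrophage markers by 0.14 (8 of 8) and of fibroblast markers by 0.10 (7 of 7). Those of adipocyte markers differed by −0.15 (1 of 6) and of colon epithelium markers by −0.05 (2 of 10). Each mean covers all markers with a probe set of their own, while the counts in brackets cover the tested genes. The part of these shifts in the diet differences below was not tested, except where arrays are left out. Some of the results that move without these arrays are given with both values below. A difference given with 1 value may move as well.

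The sequence upstream of the start site is shown for 3 genes, because Depp1 is a textbook FOXO target while Edn1 and Bnip5 followed other FOXO-linked genes most closely from array to array (below). Each line gives the 250 bases before the annotated RefSeq start in GRCm38.p6, written 5′ to 3′ along the gene. Depp1 lies at chr6:116650434-116650683 on the plus strand, Edn1 at chr13:42301226-42301475 on the plus strand and Bnip5 at chr17:28915325-28915574 on the minus strand. Capitals mark AAACA, the shorter core of FOXO sites, on either strand, so that TGTTT is the same match on the opposite strand.
Depp1: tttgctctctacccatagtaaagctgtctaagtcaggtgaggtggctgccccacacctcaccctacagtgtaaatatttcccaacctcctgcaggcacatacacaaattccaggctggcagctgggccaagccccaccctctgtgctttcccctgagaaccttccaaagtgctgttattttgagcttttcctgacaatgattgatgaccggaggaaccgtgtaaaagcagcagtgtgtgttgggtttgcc
Edn1: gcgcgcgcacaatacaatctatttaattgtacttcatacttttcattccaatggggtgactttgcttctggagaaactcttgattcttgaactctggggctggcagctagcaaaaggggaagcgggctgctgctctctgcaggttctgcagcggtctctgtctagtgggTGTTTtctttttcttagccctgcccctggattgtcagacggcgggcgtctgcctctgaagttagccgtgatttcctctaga
Bnip5: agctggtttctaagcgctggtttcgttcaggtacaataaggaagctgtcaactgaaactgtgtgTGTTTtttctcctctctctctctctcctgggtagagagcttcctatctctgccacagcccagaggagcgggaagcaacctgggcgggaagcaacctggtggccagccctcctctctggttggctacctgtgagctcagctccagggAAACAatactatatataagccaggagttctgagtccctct
Depp1 has no AAACA in this window. Edn1 has 1, with its first base 81 bases before the start, and Bnip5 has 2, at 186 and 40 bases before it. Ahnak2 and Tmem86a hold 1 each. AAACA was present in 4 of the 10 windows found for the members, of which Sh3d21 has 2, and in 46.4% of all 32851 upstream windows of this length. The longer FOXO site GTAAACA, which contains AAACA, was in none of the members' windows and in 3.17% of all. The E-box CACGTG and the AP-1 site TGANTCA were also in none, against 6.02% and 6.75% of all windows. The GC box GGGCGG was in 5 of the 10, against 32.7%, with 4 copies upstream of Sun2. These matches describe letters in a short window and say nothing of binding. Other spellings of FOXO sites were not searched, so a window without a match is not shown to lack a FOXO site.

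**Figure D1:**
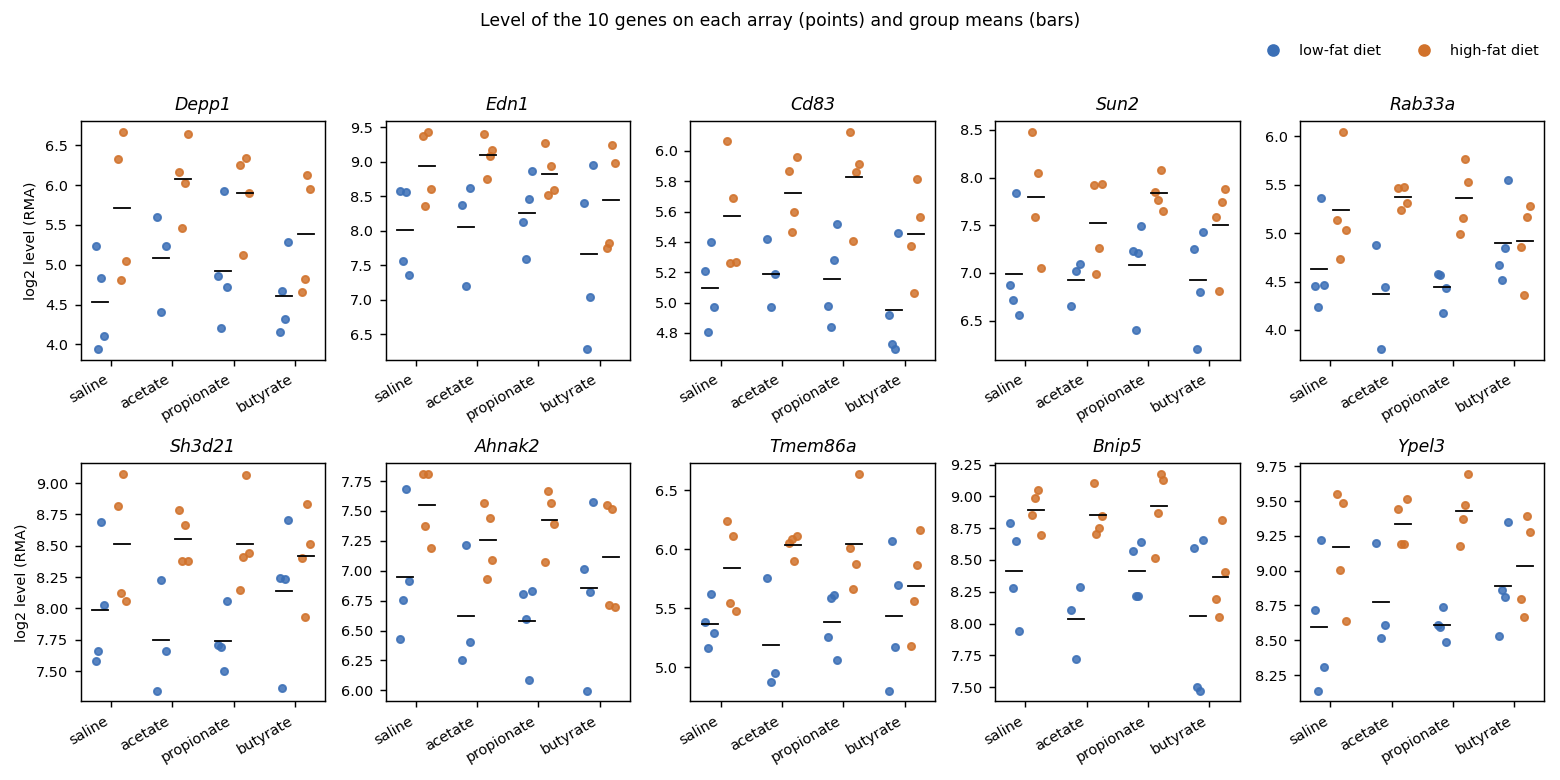
Log2 level (RMA) of each of the 10 genes on each of the 31 arrays, by infusion and diet; points are arrays and black bars are group means. Group means on HFD lie above those on LFD in every panel and infusion, by 0.02 (Rab33a under butyrate) to 1.18 (Depp1 under saline).

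Depp1 had the largest diet difference. Under saline it read 5.24, 3.95, 4.83 and 4.11 on LFD and 6.33, 4.81, 6.67 and 5.05 on HFD. Under acetate it read 5.59, 4.41 and 5.23 on LFD and 6.16, 5.46, 6.03 and 6.64 on HFD. The HFD arrays thus tended high, but the diets overlapped under both infusions. Under propionate the LFD arrays read 4.86, 4.20, 5.93 and 4.72 and the HFD arrays 6.25, 5.12, 6.35 and 5.90. Under butyrate they read 4.15, 4.67, 4.32 and 5.29 on LFD and 4.66, 4.82, 6.13 and 5.96 on HFD. Every one of the 16 HFD arrays lay above the LFD mean of its own infusion, and no infusion separated the diets without overlap. The difference was 1.18 ± 0.43 (standard error of the fit, as for all differences below) under saline, 1.00 ± 0.46 under acetate, 0.98 ± 0.43 under propionate and 0.78 ± 0.43 under butyrate. Over the 4 infusions it was 0.99 ± 0.22, a 1.98-fold higher level on HFD. Some LFD arrays read below 4.32, the level asked of at least 3 arrays by the filter on dim genes, so Depp1 was measured near the dim end on LFD. Without acetate LFD 2 the acetate difference was 0.66.

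Edn1, the endothelin-1 precursor, was the most variable of the 10 within groups. Under saline it read 8.59, 7.56, 8.56 and 7.36 on LFD and 9.37, 8.36, 9.43 and 8.61 on HFD. Under acetate it read 8.37, 7.19 and 8.62 on LFD and 9.41, 8.75, 9.09 and 9.18 on HFD. Under acetate all HFD arrays lay above all LFD arrays, while under saline the diets overlapped. Under propionate the LFD arrays read 8.12, 7.59, 8.46 and 8.86 and the HFD arrays 9.27, 8.51, 8.93 and 8.59. Under butyrate the LFD arrays spread from 6.29 to 8.95, with 8.41 and 7.03 between, and the HFD arrays read 7.75, 7.82, 9.24 and 8.98. The low array was butyrate LFD 2, which was also the lowest in distal colon markers and the highest in adipocyte markers. The differences were 0.93 ± 0.45, 1.04 ± 0.48, 0.57 ± 0.45 and 0.78 ± 0.45 in the order saline, acetate, propionate, butyrate, and 0.83 ± 0.23 over all (1.78-fold). Without the 4 arrays lowest in distal colon markers the difference under butyrate was 0.32, and without the 4 highest in small intestine markers that under propionate was 0.35. Without butyrate LFD 4 the butyrate difference was 1.20, and without acetate LFD 2 the acetate difference was 0.61.

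The immune marker Cd83 had the lowest spread of the 10 genes and a difference of similar size under each infusion. Its LFD arrays ranged from 4.70 to 5.52 and its HFD arrays from 5.07 to 6.12. The difference was 0.47 ± 0.20 under saline, 0.53 ± 0.22 under acetate, 0.67 ± 0.20 under propionate and 0.51 ± 0.20 under butyrate. It was 0.55 ± 0.10 over all (1.46-fold), and all 16 HFD arrays lay above the LFD mean of their infusion. The diets did not overlap under acetate and overlapped under the other infusions. Without saline HFD 1 the difference under saline was 0.31. Macrophage markers averaged 4.98 to 5.40 on LFD and 5.06 to 5.93 on HFD, and B cell and plasma cell markers 4.93 to 6.15 and 5.135 to 6.36. T cell markers differed by 0.02 over the diets. Of 17 other genes of the mature dendritic cell list 8 were tested, and 7 of the 8 were above 0 on HFD (median 0.11), with no call. Over all tested genes 52.4% were above 0. In deviations from group means (below), Cd83 had r = 0.28 with macrophage, 0.33 with B cell and plasma cell and 0.35 with T cell markers. None of these relations passed.

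Sun2, of the nuclear envelope, ranged from 6.20 to 7.83 on LFD and from 6.81 to 8.48 on HFD. Its difference was 0.80 ± 0.31 under saline, 0.60 ± 0.34 under acetate, 0.75 ± 0.31 under propionate and 0.59 ± 0.31 under butyrate, and 0.68 ± 0.16 over all (1.61-fold). Under propionate all HFD arrays (7.65 to 8.08) lay above all LFD arrays (6.40 to 7.49). Without the arrays lowest in distal colon markers, the Sun2 difference under butyrate was 0.35. Under saline it was 0.56 without the arrays high in smooth muscle markers and 1.15 without those high in small intestine markers. Under propionate it was 0.53 without the arrays high in small intestine markers.

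Rab33a, the small GTPase, had the widest range of diet differences between infusions. Under acetate it read 4.88, 3.81 and 4.44 on LFD and 5.46, 5.24, 5.47 and 5.31 on HFD. Under propionate it read 4.58, 4.57, 4.18 and 4.43 on LFD and 4.995, 5.16, 5.76 and 5.53 on HFD. Both infusions separated the diets without overlap. Under saline the LFD arrays read 4.46, 4.24, 5.37 and 4.47 and the HFD arrays 5.13, 4.73, 6.04 and 5.04. Under butyrate they read 4.67, 4.52, 4.84 and 5.55 on LFD and 4.86, 4.36, 5.17 and 5.28 on HFD, so that the highest and the lowest array of this infusion were an LFD and an HFD array. The difference was 0.60 ± 0.27 under saline, 1.00 ± 0.29 under acetate, 0.92 ± 0.27 under propionate and 0.02 ± 0.27 under butyrate, and 0.64 ± 0.14 over all (1.55-fold). Leaving out single arrays moved the Rab33a difference under butyrate between −0.10 (without butyrate LFD 2) and 0.24 (without butyrate LFD 4). The saline difference was 0.94 without the arrays high in small intestine markers and 0.91 without those high in smooth muscle markers. It was 0.33 without saline HFD 3. The acetate difference was 0.71 without acetate LFD 2 and 1.25 without acetate LFD 1. Rab33a had the lowest mean level of the members, 4.92. Its LFD arrays at 3.81, 4.18 and 4.24 lay below the level used in the filter on dim genes. Rab33a, like Depp1, was therefore measured near the dim end on LFD.

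The SH3-domain gene Sh3d21 and the scaffold gene Ahnak2 ran closely together. Sh3d21 ranged from 7.35 to 8.71 on LFD and from 7.93 to 9.07 on HFD, with differences of 0.53 ± 0.27, 0.81 ± 0.29, 0.78 ± 0.27 and 0.28 ± 0.27 under saline, acetate, propionate and butyrate. Ahnak2 ranged from 6.00 to 7.68 on LFD and from 6.70 to 7.81 on HFD, with differences of 0.60 ± 0.29, 0.64 ± 0.31, 0.85 ± 0.29 and 0.27 ± 0.29 in the same order. Over all infusions they were higher by 0.60 ± 0.14 (1.51-fold) and 0.59 ± 0.15 (1.50-fold). Both separated the diets under propionate, and Sh3d21 did so under acetate as well. Without single arrays the differences over all infusions were 0.53 to 0.66 for Sh3d21 and 0.52 to 0.66 for Ahnak2, and those under single infusions moved more. Without the arrays lowest in distal colon markers the differences over all infusions were 0.46 for Sh3d21 and 0.43 for Ahnak2. Under acetate they were then 0.61 and 0.45, and under butyrate 0.02 for Sh3d21 and −0.02 for Ahnak2. Without butyrate LFD 4 the butyrate differences were 0.47 and 0.51. Without saline HFD 3 the Sh3d21 difference under saline was 0.34. Without the arrays high in small intestine markers the saline differences were 0.85 and 0.93.

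The lysoplasmalogenase gene Tmem86a ranged from 4.80 to 6.07 on LFD and from 5.18 to 6.64 on HFD. Its difference was 0.48 ± 0.25 under saline, 0.85 ± 0.27 under acetate, 0.67 ± 0.25 under propionate and 0.25 ± 0.25 under butyrate, and 0.56 ± 0.13 over all (1.48-fold). The diets did not overlap under acetate and propionate. The highest LFD array, at 6.07, was butyrate LFD 2. Without the arrays lowest in distal colon markers the Tmem86a difference under butyrate was 0.46, and without butyrate LFD 1, its lowest array, it was 0.04.

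Bnip5, the BCL2-interacting gene, read 8.79, 8.28, 8.65 and 7.94 on saline LFD and 8.85, 8.99, 9.05 and 8.69 on saline HFD. It read 8.11, 7.72 and 8.29 on acetate LFD and 9.11, 8.70, 8.75 and 8.85 on acetate HFD. The acetate groups did not overlap, and in the saline groups 1 LFD array reached into the HFD range. On propionate LFD it read 8.57, 8.22, 8.21 and 8.64, and on propionate HFD 8.52, 8.87, 9.18 and 9.13. On butyrate LFD it read 8.60, 7.50, 7.47 and 8.66, and on butyrate HFD 8.19, 8.05, 8.81 and 8.40. Butyrate HFD was the low HFD group of Bnip5, with a mean of 8.37 under the 8.42 of saline LFD. The diet difference was 0.48 ± 0.23, 0.82 ± 0.25, 0.51 ± 0.23 and 0.31 ± 0.23 in the order saline, acetate, propionate, butyrate, and 0.53 ± 0.12 over all (1.44-fold). Without the arrays lowest in distal colon markers it was 0.12 under butyrate, and without single arrays 0.11 (butyrate LFD 3 left out) to 0.51 (butyrate LFD 4).

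Ypel3, of the growth arrest family, read 8.72, 8.14, 9.22 and 8.31 on saline LFD and 9.55, 9.01, 9.49 and 8.64 on saline HFD. It read 9.20, 8.52 and 8.61 on acetate LFD and 9.44, 9.19, 9.19 and 9.52 on acetate HFD. In both infusions 1 LFD array or more reached into the HFD range. On propionate LFD it read 8.61, 8.60, 8.74 and 8.49, and on propionate HFD 9.18, 9.37, 9.47 and 9.69. On butyrate LFD it read 8.53, 8.86, 8.81 and 9.35, and on butyrate HFD 8.79, 8.67, 9.39 and 9.27. The propionate groups stood clear of each other, and the butyrate groups covered nearly the same range. The difference was 0.57 ± 0.22 under saline, 0.56 ± 0.23 under acetate, 0.82 ± 0.22 under propionate and 0.14 ± 0.22 under butyrate, and 0.52 ± 0.11 over all (1.44-fold). Without single arrays the butyrate difference of Ypel3 was 0.02 (butyrate HFD 3 left out) to 0.30 (butyrate LFD 4).

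Across the members the median diet difference was 0.59 under saline, 0.81 under acetate, 0.76 under propionate and 0.30 under butyrate, against 0.01, 0.01, −0.02 and 0.02 over all tested genes. All 10 were past the limma threshold on which they were ranked, as were 1.53% of all tested genes in that direction, and nothing is read from that count. The diets did not overlap for 6 members under acetate (4.22% of all tested genes) and for 6 under propionate (5.22%). Under saline and under butyrate this held for 0 members, and for 1.5% and 1.7% of all tested genes. With 3 arrays on acetate LFD and 4 in the other groups, a lack of overlap is easier to reach under acetate. Since the rule used these contrasts, the counts describe the choice. In 9 of the 10 genes every HFD group mean lay above every LFD group mean, Bnip5 being the exception. This held for 152 of the other 186 genes called higher on HFD (81.7%) and for 6.89% of all tested genes. Neighbouring groups in that order were mostly closer than the larger of their standard deviations: 7 of 7 neighbour pairs in 9 genes and 6 of 7 in Bnip5.

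**Figure D2:**
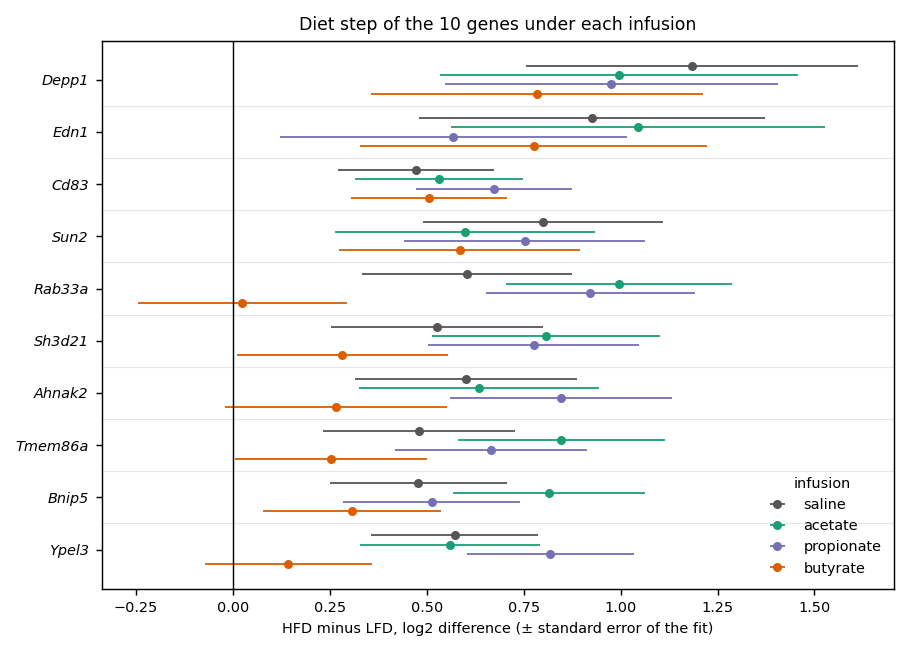
Diet difference (HFD minus LFD, log2, ± standard error of the fit) of each gene under saline, acetate, propionate and butyrate. Butyrate gave the smallest of the 4 differences in 8 of the 10 genes, and its lowest value is 0.02 for Rab33a.

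Whether the diet difference itself differed between infusions is a comparison that the choice of the genes did not use. Butyrate gave the smallest difference in 8 of 10 members, propionate in Edn1 and saline in Cd83. It also gave the smallest in 112 of the 186 other genes called higher on HFD (60.2%) and in 17.3% of all tested genes, so the pattern was shared with the other diet-raised genes. The limma F test of diet by infusion called 0 members and 0 of 12795 genes at an adjusted p of 0.05 (9.2% of genes had an unadjusted p under 0.05). Rab33a came closest, with F = 2.59 and a limma adjusted p of 0.589 (0.0727 before adjustment). In the same limma test Ypel3 followed with an adjusted p of 0.726, and the other 8 genes had adjusted p of 0.859 to 0.993. Against saline, butyrate changed the Rab33a difference by −0.58 (95% interval −1.36 to 0.20). The 95% intervals of such changes reached from 0.58 to 1.35 to either side of the estimate over the members and acids, which is about the size of the diet differences themselves.

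The acid infusions were compared with saline and with each other at the same dose within each diet, 12 comparisons per gene, adjusted over all tested genes in each. The comparisons of acids with saline share the saline arrays of their diet. No member was called in any of the 12 by limma. On LFD the members went both ways, with acetate below saline in 6 of 10, propionate in 4 and butyrate in 5. Depp1 was 0.55 higher with acetate than with saline on LFD (95% interval −0.40 to 1.50), and Ypel3 was 0.29 higher with butyrate (−0.15 to 0.73).

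On HFD butyrate gave the lowest of the 4 group means in all 10 genes. The same held for 106 of the other 186 genes called higher on HFD (57.0%) and for 18.5% of all tested genes. Against saline the median of the 10 differences was −0.30, against acetate −0.32 and against propionate −0.38, and each was below 0 in 10 of 10 members, where 42.8%, 42.8% and 39.8% of all tested genes were below 0. These 3 comparisons share the 4 butyrate arrays on HFD, and the members vary together from array to array (below). Neither the comparisons nor the members are therefore independent of each other. Bnip5 had the largest of the 10 differences from saline and from propionate. Butyrate minus saline was −0.53 for Bnip5 (95% interval −0.999 to −0.06, limma adjusted p = 0.99958). Butyrate minus acetate was −0.49 (−0.96 to −0.02, limma adjusted p = 0.996), and butyrate minus propionate −0.56 (−1.03 to −0.09, limma adjusted p = 0.205). In each case all 4 butyrate arrays of Bnip5 lay below the mean of the other group. None of these passed the limma test adjusted over all genes, and before adjustment the 3 Bnip5 p-values, 0.0282, 0.0424 and 0.0215 by limma, are the only ones under 0.05 among the 10 genes. For Edn1 butyrate minus saline was −0.50 (−1.41 to 0.42) and butyrate minus acetate −0.66 (−1.57 to 0.26). Over all tested genes the limma calls in these comparisons were 8 genes (0.0625%) for butyrate against propionate on HFD and 0 for the others, which had 179 to 1686 genes at an unadjusted p under 0.05.

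Acetate and propionate, which differ by 1 carbon, gave no call against each other on either diet. On HFD propionate minus acetate had a median of 0.04 and ran from −0.28 to 0.31 over the members, with 95% intervals that reached from −1.20 to 0.95. Butyrate and propionate, also 1 carbon apart, differed on HFD by −0.56 (Bnip5) to −0.10 (Sh3d21), with intervals from −1.39 to 0.54. A p above the threshold does not show that the acids act alike.

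**Figure D3:**
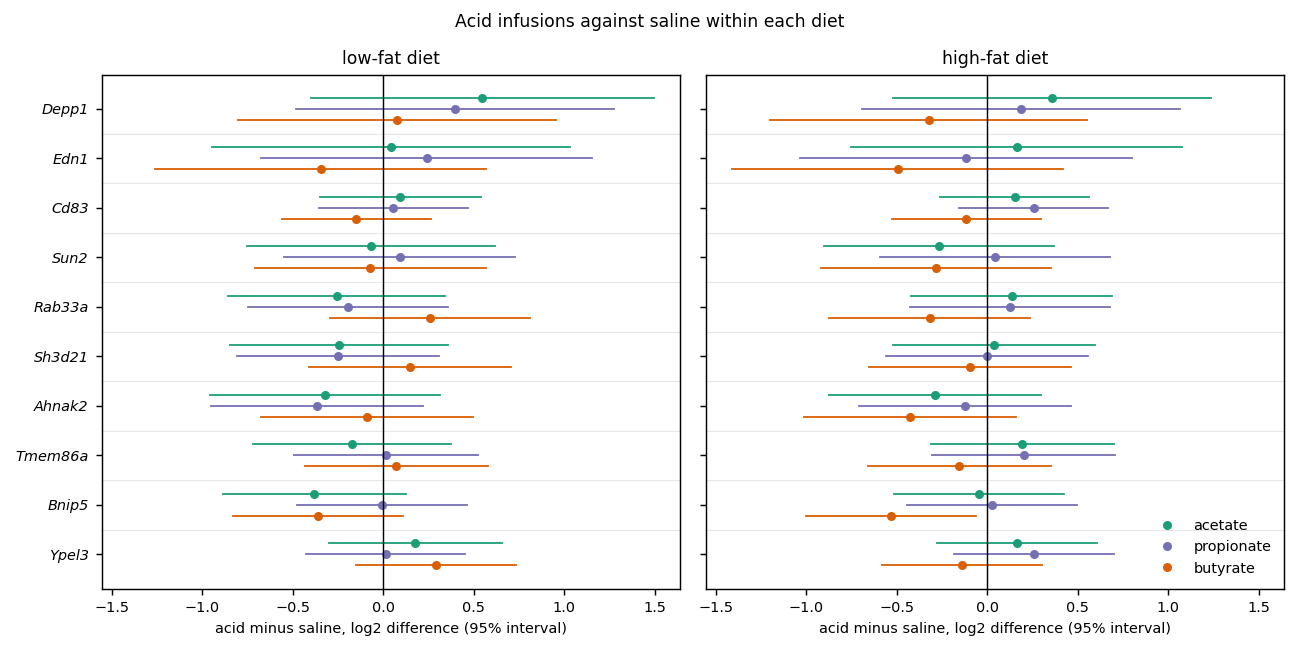
Acid minus saline (log2) for each gene on LFD (left) and HFD (right); points are differences and lines their 95% intervals from the limma fit. On HFD all 10 butyrate points lie below 0, and the Bnip5 interval (−0.999 to −0.06) is the one that does not reach 0.

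The genes varied strongly among arrays of a single group, and largely together. Their pooled standard deviation within groups was 0.30 (Cd83) to 0.69 (Edn1), against a median of 0.15 over all tested genes, which put them in the 94.5th to 99.6th percentile. Deviations from the 8 group means, which hold no diet or infusion difference, were correlated over the 31 arrays. Of 45 pairs, 42 had an r above 0 and 27 passed both Pearson and Spearman permutation tests within groups after adjustment over the 45. All 27 kept an r of at least 0.3 without the 2 arrays farthest from the median. Sh3d21 and Ahnak2 were closest (r = 0.86, rho = 0.84, permutation adjusted p = 0.000225 for each, r = 0.81 without the 2 farthest arrays). Edn1 and Cd83 followed (r = 0.80, rho = 0.76, permutation adjusted p = 0.000225 for each, 0.79 without those arrays). Depp1 and Cd83 had r = 0.78 and rho = 0.80, Edn1 and Bnip5 r = 0.78 and rho = 0.78, and Rab33a and Ypel3 r = 0.75 and rho = 0.72.

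Tmem86a stood aside from part of the set. It followed Ypel3 (r = 0.73, rho = 0.75) but had r = −0.24 with Ahnak2, 0.02 with Bnip5 and 0.04 with Sun2. Genes that vary together are likelier to be chosen together on a diet difference from the same arrays. An r above 0.5 was found in 53.3% of the members' pairs, in 27.2% of pairs among the other 186 genes called higher on HFD and in 4.31% of pairs of all tested genes. On saline LFD 3, butyrate LFD 4, saline HFD 3, acetate HFD 1 and butyrate HFD 3 all 10 genes lay above their group mean, and on saline LFD 2, saline HFD 4 and butyrate HFD 2 all 10 lay below it. Butyrate LFD 4 and butyrate HFD 3 also moved the butyrate differences most, to a median of 0.51 without the first and 0.18 without the second.

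**Figure D4:**
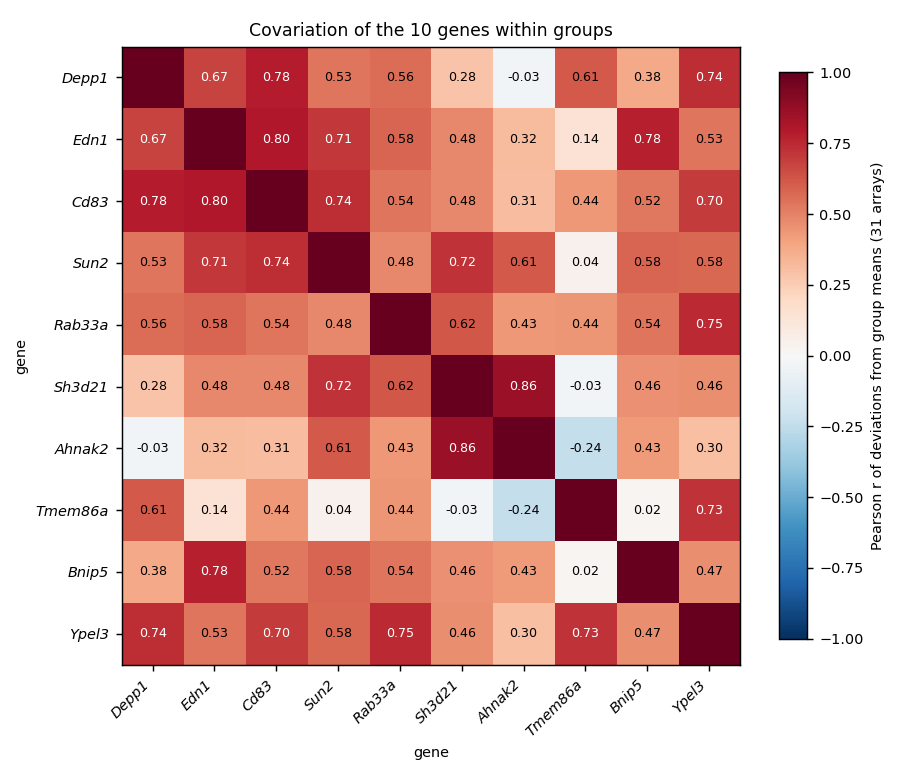
Pearson r between the 10 genes over 31 arrays after each group mean was subtracted; colour and number give r. Most pairs are positive (42 of 45), and Tmem86a with Ahnak2 is the lowest at −0.24.

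The genes most like each member in these deviations, out of 12785 others, were named by their r over the 31 arrays. Depp1 was most like Ago4 (0.91), Nadk2 (0.87) and Rbl2 (0.87). Edn1 was most like Arrdc3 (0.93), Ccdc28a (0.90) and Pik3c3 (0.90). Cd83 was most like Cblb (0.88), Lancl1 (0.87) and Tcp11l2 (0.86). Arrdc3 is an arrestin-like adaptor and Cblb a ubiquitin ligase. For Sun2 they were Slc20a1 (0.91), Wdtc1 (0.88) and Syn2 (0.87), and for Rab33a Zer1 (0.84), Mettl27 (0.83) and Dcaf4 (0.82). For Sh3d21 they were Scel (0.86), Ttll6 (0.85) and Thnsl2 (0.85), and for Ahnak2 Ano1 (0.87), Sytl1 (0.85) and Robo2 (0.84). Scel encodes sciellin, a protein of cornifying epithelia, and Ano1 a chloride channel. For Tmem86a they were Prkcz (0.90), Cda (0.84) and Rab17 (0.84), for Bnip5 Rasgef1b (0.86), Khnyn (0.86) and Irs2 (0.85), and for Ypel3 Wdr45 (0.92), Erbb3 (0.90) and Inpp5k (0.90). Of these, Ago4, Cblb, Tcp11l2, Ttll6, Khnyn, Wdr45, Erbb3 and Inpp5k were higher on HFD at an adjusted p under 0.05 (limma), with log2 differences of 0.30 (Khnyn) to 0.40 (Wdr45).

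The members' deviations were also set against the mean of 12 gene lists without the members, 120 relations in all, of which 25 passed both permutation tests after adjustment over the 120. The FOXO and nutrient-responsive list (23 other genes) passed with 7 of 10 members: Edn1 (r = 0.85, rho = 0.81), Bnip5 (0.82, 0.81), Cd83 (0.75, 0.67), Ypel3 (0.74, 0.70), Depp1 (0.72, 0.68), Sun2 (0.71, 0.70) and Rab33a (0.69, 0.66). Their permutation adjusted p ran from 0.0015 to 0.00794, and r without the 2 farthest arrays was 0.68 to 0.82. Sh3d21 (0.51), Tmem86a (0.38) and Ahnak2 (0.32) did not pass. The BCL2 and BH3 list passed with 6 members, Bnip5 (0.70) and Rab33a (0.65) the highest. The other YPEL genes passed with 4, namely Edn1 (0.77), Bnip5 (0.71), Cd83 (0.60) and Depp1 (0.54), but not with Ypel3 itself (0.50). Hypoxia genes ran the other way, with r = −0.71 for Tmem86a, −0.69 for Depp1, −0.63 for Ypel3 and −0.52 for Cd83. AHNAK partners, a list of only 3 genes here, ran against Tmem86a (−0.68), Depp1 (−0.67) and Ypel3 (−0.63), and the autophagy list passed with Tmem86a alone (0.56). The endothelin, LINC complex, mature dendritic cell, immediate-early, NF-kappaB and plasmalogen lists passed with no member. Since the members vary together, passes of a list with several of them are not independent of each other. No share over all tested genes is given beside these counts, so they are not read as particular to the members.

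**Figure D5:**
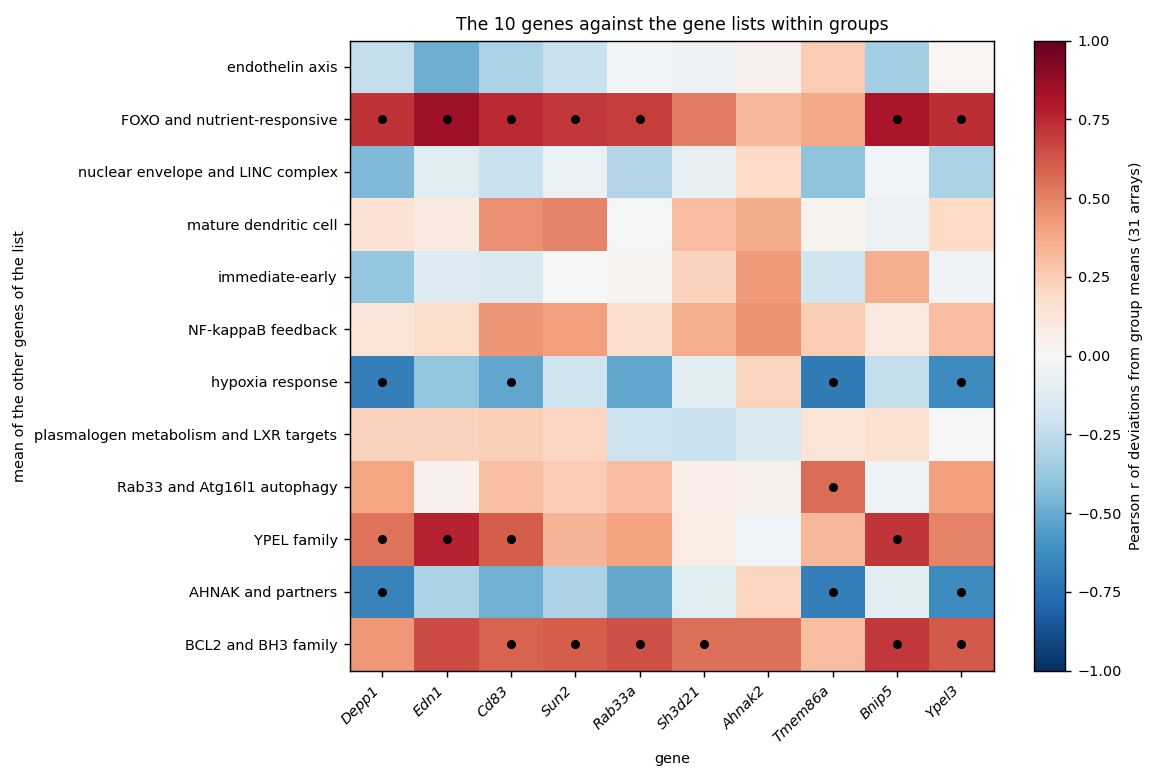
Pearson r between each gene and the mean of the other genes of 12 lists, over 31 arrays after group means were subtracted; black dots mark relations that passed both permutation tests after adjustment over 120. The FOXO row is positive in all 10 genes (0.32 to 0.85), and the hypoxia row is negative in 9 of them.

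The same arrays were checked against marker lists of other cells, 110 relations. None passed both tests. Ahnak2 had r = 0.73 with the distal colon list (permutation adjusted p = 0.0451, rho = 0.65 with adjusted p = 0.0957), Sh3d21 r = 0.62 and Tmem86a r = −0.56. Depp1 had r = −0.67 with the colon epithelium list (permutation adjusted p = 0.0873). With the same list Cd83 had r = −0.58 (permutation adjusted p = 0.110) and Edn1 r = −0.45, and every other member but Ahnak2 (r = 0.05) was also below 0. With the T cell list, Tmem86a had r = 0.65 (rho = 0.63, permutation adjusted p = 0.0873 and 0.111) and Depp1 r = 0.58.

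Few relatives of the members differed by diet themselves. In the FOXO list 3 of 23 other genes were called higher on HFD and 0 lower (limma, adjusted over all tested genes): Gabarapl1, of autophagosome formation, by 0.42 (adjusted p = 0.0425), Trp53inp1, a stress protein of autophagy, by 0.36 (adjusted p = 0.0199), and Pink1, a kinase of mitochondrial quality control, by 0.33 (adjusted p = 0.031). Of the 23 genes 21 were above 0, with a median of 0.12 against 0.01 over all tested genes, where 52.4% were above 0, 1.53% were called higher and 1.16% lower. Pdk4 differed by 0.52 and Irs2 by 0.37, with adjusted p of 0.126 and 0.173. The factors themselves differed by 0.08 (Foxo1) and 0.12 (Foxo3), with adjusted p of 0.344 and 0.247. Bok of the BCL2 list was higher by 0.33 (adjusted p = 0.0161, 1 of 17), Mylip, an LXR target, by 0.26 (adjusted p = 0.0256, 1 of 13), and Map1lc3b, a coat protein of autophagosomes, by 0.22 (adjusted p = 0.0344, 1 of 16).

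Of the direct relatives none passed. Edn2 differed by 0.07, Edn3 by −0.02, the receptor gene Ednrb by −0.12 and the converting enzyme gene Ece1 by −0.01, with 0 of 7 endothelin genes called and 2 above 0. Sun1 differed by 0.07 and Lmna by 0.0039 (adjusted p = 0.274 and 0.986), with 0 of 16 nuclear envelope genes called. Rab33b differed by 0.06, Atg16l1 by −0.08, Ahnak by 0.01 and Tmem86b by −0.15. The other YPEL genes were all above 0, at 0.13 (Ypel1), 0.25 (Ypel2), 0.02 (Ypel4) and 0.16 (Ypel5), and 0 of 4 passed (smallest adjusted p = 0.0691). Lists of mature dendritic cells (0 of 8, 7 above 0), immediate-early genes (0 of 18, 13 above 0), NF-kappaB feedback (0 of 12, 10 above 0), hypoxia (0 of 16, 4 above 0) and AHNAK partners (0 of 3, 1 above 0) had no call in either direction. A difference that misses the threshold is not shown to be absent.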

How the data were processed

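RNA of 31 scrapings was read on 1 single-colour array each. The authors deposited log2 values made by RMA, per the submitters' processing notes, for 35556 probe sets; neither RMA's version nor the design's genome build is stated there. No depth applies: the number of arrays limits the precision. Of the probe sets 21218 have 1 symbol, 1881 several and 12457 are unlisted. Of several for a gene, that with the highest mean was kept, and genes with at least 3 arrays at an intensity of 20 were tested (12795). The model had 8 group means and variances moderated along an intensity trend (limma 3.58.1, R 4.3.3). p-values were Benjamini-Hochberg adjusted over all tested genes (threshold 0.05), with 95% intervals. Correlations used 100000 permutations within groups, two-sided. The code was tested on simulated data. The members, lists and tests were chosen with earlier results of these data known. Named genes are the members, listed relatives, list genes past the threshold (up to 6), the 3 genes most like each member, and ranks 11 to 13; Ednra was not analysed here, and Slc37a2, Clu, Gp2, Trpv3, Cyp2d12, Pdk4, Irs2, Epcam, Krt20 and Muc2 were named after their values were seen. Upstream sequences are RefSeq's (GRCm38.p6), found for 9 members. Alternatives were filters, moderation, array weights, quantile normalization, all probe sets, fits of only the groups compared, a replicate block, and left-out arrays.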

Additional observations from a re-analysis of the deposited data

How the results depend on the processing

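Leaving out 1 array gave a members' median diet difference of 0.56 to 0.65 over all infusions (0.59 with all arrays). Under saline it was 0.45 to 0.81 (0.59 with all arrays), under acetate 0.66 to 0.85 (0.81) and under propionate 0.70 to 0.84 (0.76). Under butyrate it was 0.18 to 0.51 (0.30 with all arrays), a wide range beside its size. No acid comparison or diet-by-infusion test called a member under any alternative. The number of genes called for diet over all genes, 345, was 1788 with array weights, 115 without the 2 saline HFD arrays highest in smooth muscle markers, 559 without the 4 highest in small intestine markers and 820 without the 4 lowest in distal colon markers. Without single arrays the number was lowest at 127, when acetate LFD 3 was left out, and highest at 1027, when saline LFD 3 was. The cause was not tested. Of the 10 members 7 stayed past that threshold without the smooth muscle arrays and 8 to 10 without single arrays; with a mean level of at least 6 asked, 6 were tested and Depp1, Cd83, Rab33a and Tmem86a were left out. Correlated pairs numbered 20 to 31 without single arrays (27 with all). Over all genes, the largest counts under any alternative were 1202 for propionate against acetate, 937 for butyrate against propionate and 225 for propionate against saline, all on HFD, 101 for the propionate diet difference and 40 for diet by infusion.

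With the replicate number as a block, the members' median diet difference was 0.59, 454 genes were called for diet and the members' calls did not change. The numbers were not shown to pair the arrays: deviations of same-numbered arrays correlated with a mean r of 0.04 (−0.01 for other numbers), 42 of 105 such pairs were above 0.1, and 10 of 31 arrays correlated best with their own number. No member had a further probe set to try, and a fit of only the groups compared does not apply to the tests over all groups.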
